A study of Mus musculus with 4 samples.

Results

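The BCL2 family genes described here are 10 genes that encode main survival and death proteins of the mitochondrial route of apoptosis: Bcl2, Bcl2l1, Mcl1 and Bcl2a1b (survival), Bax and Bak1 (effectors), and Bcl2l11, Bid, Bbc3 and Pmaip1 (BH3-only). They were taken by gene symbol from the deposited counts of primary mouse microglia, where all 10 were found among 54532 annotated genes, and all 10 passed the filter on low counts that left 13811 protein-coding genes for testing. With EGCG, 0 of 10 had an unadjusted p under 0.05 against Vehicle with treatment as the only term, where 0.116% of all genes tested did, so the count shows nothing particular to these genes. The largest fitted difference in either direction was 0.16 on the log2 scale, in Bid. Differences over 0.5 on that scale lay between the 2 biological replicates, where Bcl2, Bcl2l1 and Bcl2a1b were lower and Bcl2l11 was higher in replicate 2 under both treatments. Such differences were found in 27.7% of all genes tested too, and the median size between the Vehicle libraries was 0.13 in the 10 genes against 0.38 over all genes.

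BCL2 family proteins decide whether the outer mitochondrial membrane is breached, the step that releases cytochrome c and sets off the caspases. BAX and BAK form the pores, BCL2, BCL-XL (from Bcl2l1), MCL1 and A1 (from the Bcl2a1 genes) hold them in check, and the BH3-only proteins BIM (from Bcl2l11), BID, PUMA (from Bbc3) and NOXA (from Pmaip1) relay stress by binding the survival proteins or the effectors. Microglia, the resident macrophages of the brain, depend on CSF1R signalling for survival, and A1 and MCL1 are prominent survival proteins of myeloid cells.

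The cells came from the cortex of male CD1 pups aged 1 to 3 days, grown as mixed glia with GM-CSF until the astrocyte layer was lifted off with trypsin, which leaves the microglia and any other cell that stays attached. All 4 cultures were then kept in serum-free medium containing IL-34, TGFβ2, GM-CSF and cholesterol, and for 24 h the EGCG group (2 libraries) received 1 µM EGCG, a catechin of green tea, while the Vehicle group (2 libraries) received its solvent, DMSO. Each deposited table held 1 Vehicle and 1 EGCG library of the same replicate number. The question was which transcripts of microglia EGCG alters, and no genotype or transgene was involved.

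Bcl2a1b is 1 of several near-identical mouse copies of the A1 gene on chromosome 9, and its counts depend on which copy a read is given to. The first 150 coding bases of the 3 copies with reads are shown (GENCODE release M21 transcripts, build GRCm38, in exon 1 of 2). This stretch was chosen because no other coding stretch of its length has more positions that differ among the copies. The 7 positions that differ stand in capitals. Bcl2a1a lies at chr9:88957051-88957200 on the plus strand, Bcl2a1b at chr9:89199360-89199509 on the plus strand and Bcl2a1d at chr9:88731570-88731719 on the minus strand, and each sequence is written 5′ to 3′ in the direction of the gene.
Bcl2a1a: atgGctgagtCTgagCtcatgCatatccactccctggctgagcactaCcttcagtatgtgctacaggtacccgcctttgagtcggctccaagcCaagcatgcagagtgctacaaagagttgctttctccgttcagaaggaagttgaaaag
Bcl2a1b: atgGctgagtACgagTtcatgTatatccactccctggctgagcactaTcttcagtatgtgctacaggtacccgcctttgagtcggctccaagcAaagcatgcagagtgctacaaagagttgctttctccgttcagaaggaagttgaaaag
Bcl2a1d: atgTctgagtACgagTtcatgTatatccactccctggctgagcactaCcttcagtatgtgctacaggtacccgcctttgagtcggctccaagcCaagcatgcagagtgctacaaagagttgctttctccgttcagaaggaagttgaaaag

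Over the whole coding sequence of 516 bases, 12 positions varied among the 3 copies. Bcl2a1b differed from Bcl2a1a at 11 positions (97.9% identity) and from Bcl2a1d at 6 (98.8%), and Bcl2a1a differed from Bcl2a1d at 7 (98.6%). Of all 150-base stretches of its transcript, Bcl2a1b shared 14.2% exactly with another copy, against 28.2% for Bcl2a1a and 30.3% for Bcl2a1d. A read from such a stretch could not be placed on 1 copy by itself. Reads were paired, so its mate could still place it, and pairs were not examined.

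Bcl2l11 and Bbc3 are textbook targets of FOXO transcription factors, which act when growth factor signalling is low. RefSeq windows of 300 bases (250 before and 50 after a start site, build GRCm38.p6) were listed for 9 of the 10 genes and held 14 windows. The letters GTAAACA, searched on both strands, occurred in 3.65% of the 32851 windows listed for all genes. Among the member genes they occurred in 1 window of Bcl2l11, at chr2:128125788-128126087 on the plus strand, and in 1 of Bbc3, at chr7:16310011-16310310 on the plus strand, where the match is in capitals and reads on the opposite strand in Bbc3. The matches began at -227 and -167 from the start site. These windows are shown because they held a match. The other windows listed for both genes held none and are not shown. A match of letters is a description and shows no binding.
Bcl2l11: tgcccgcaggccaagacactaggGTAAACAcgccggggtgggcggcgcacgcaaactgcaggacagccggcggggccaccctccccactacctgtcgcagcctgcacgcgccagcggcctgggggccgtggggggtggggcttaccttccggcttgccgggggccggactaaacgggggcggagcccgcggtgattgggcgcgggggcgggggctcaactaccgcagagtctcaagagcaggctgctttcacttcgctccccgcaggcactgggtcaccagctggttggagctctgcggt
Bbc3: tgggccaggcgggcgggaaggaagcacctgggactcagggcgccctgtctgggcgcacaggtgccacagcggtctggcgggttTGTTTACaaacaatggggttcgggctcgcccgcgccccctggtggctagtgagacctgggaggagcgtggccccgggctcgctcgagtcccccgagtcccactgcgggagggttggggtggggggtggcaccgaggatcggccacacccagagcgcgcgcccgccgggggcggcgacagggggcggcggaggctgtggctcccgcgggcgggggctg

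Total counts were 33805071 to 36307930 in 3 libraries and 54970300 in EGCG replicate 2, with 98.0% to 98.1% on protein-coding genes. All 10 microglia markers, Csf1r, Cx3cr1, Trem2 and Aif1 among them, were detected in every library, and together they reached 6085 and 6973 CPM (reads scaled to equal library sizes by TMM) in the Vehicle libraries and 6642 and 7175 CPM in the EGCG libraries, so the markers of the labelled cell type were present. The 6 stromal markers summed to 422 CPM in Vehicle replicate 1 but 1.40 CPM in EGCG replicate 1, where Lum stood at 0, and to 160 and 176 CPM in the Vehicle and EGCG libraries of replicate 2. The 4 neuronal markers summed to 17.5 and 16.7 CPM in replicate 1, of which Snap25 made 17.2 and 16.4 CPM. In replicate 2 they summed to 0.791 and 1.14 CPM. The 3 endothelial markers summed to 2.47 and 0.905 CPM in replicate 1 and 16.8 and 13.7 CPM in replicate 2. Pecam1 alone made 15.8 and 13.4 CPM of the latter. Cdh5 went the other way, from 2.41 and 0.811 CPM in replicate 1 to 0.928 and 0.236 CPM in replicate 2. Astrocyte markers (6, with Aqp4 at 0 in EGCG replicate 1) summed to 13.7 to 19.4 CPM. Oligodendrocyte lineage markers (6) summed to 73.4 to 78.6 CPM, with Mbp alone at 69.5 to 71.2 CPM. Whether these sums mark other cells, and what part such cells had in the values below, was not tested.

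Mcl1 was the most abundant transcript of the member genes in these microglia, where Bcl2a1b was the only A1 copy ranked. Levels of different genes were compared as RPKM, which divides CPM by the gene's length in kilobases. Averaged over the 4 libraries, Mcl1 reached 223.5 RPKM and lay at percentile 98.8 of the genes tested. Among the members, Bak1 (47.0 RPKM), Bax (46.9 RPKM), Bcl2a1b (43.0 RPKM) and Bcl2l1 (37.3 RPKM) followed. Their ranges over libraries overlapped, so their order was not resolved. Bcl2a1b spanned 25.8 to 64.8 RPKM by itself. Of the A1 copies outside the member list, Bcl2a1d (86.4 RPKM) and Bcl2a1a (63.3 RPKM) had means above those of Bak1 and Bax. The copies were not summed as RPKM, so the rank of Mcl1 against all A1 copies together was not determined. Pmaip1 lay at 17.1 RPKM, and Bcl2l11 (11.4 RPKM) and Bbc3 (10.9 RPKM) came next with overlapping ranges. Bid, at 5.08 RPKM, and Bcl2, at 4.28 RPKM, were the lowest and also overlapped, and Bcl2 stood near the middle of all genes tested. Bcl2 itself was thus the least abundant survival transcript of the 4, while both effectors lay at percentile 93.5.

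**Figure D1:**
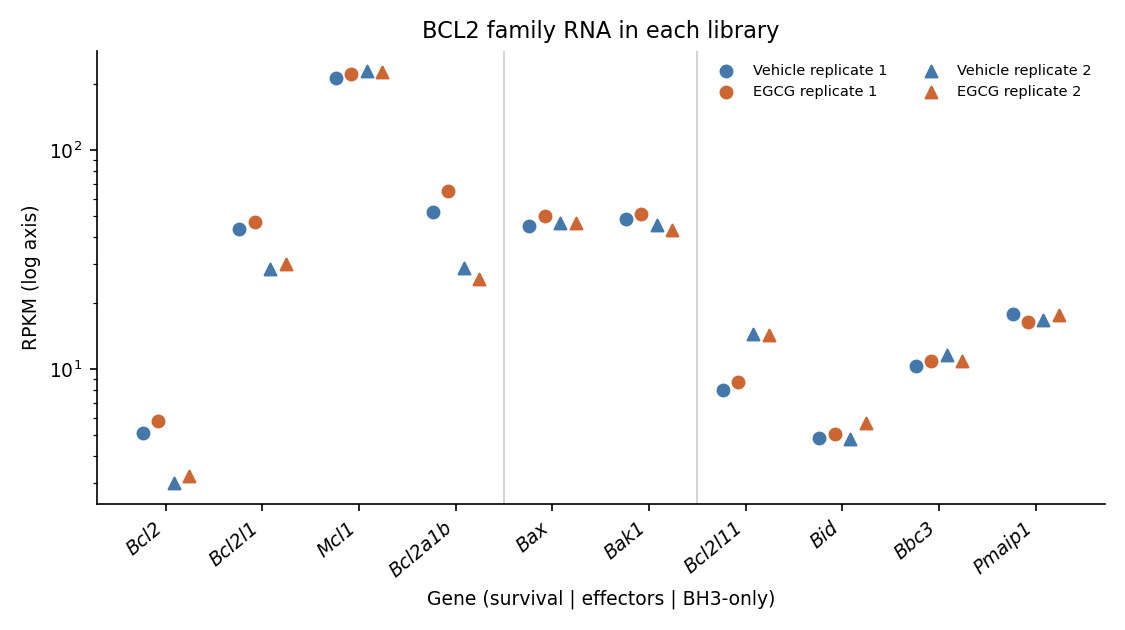
Level of each BCL2 family gene in RPKM (vertical log axis) in each of the 4 libraries, with blue for Vehicle, orange for EGCG, circles for replicate 1 and triangles for replicate 2, and genes ordered as survival, effector and BH3-only. Mcl1 sits at 214 to 229 RPKM, far above the other genes plotted, which include Bcl2a1b alone of the A1 copies. Circles and triangles separate for Bcl2, Bcl2l1, Bcl2a1b and Bcl2l11, whereas blue and orange symbols of the same shape lie close together.

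EGCG and Vehicle were compared by the two-sided quasi-likelihood F test of edgeR, first with treatment as the only term and then with the replicate number, which is also the deposited table, as a further term. A gene was called at an unadjusted p under 0.05 or, after Benjamini-Hochberg adjustment over the 13811 genes, at an adjusted p under 0.1. With treatment only, 0 of 10 member genes had an unadjusted p under 0.05 (0.116% of all genes tested did). At an adjusted p under 0.1, 0 of 10 passed (0% of all genes). On simulated counts, that fit recovered 0% of 200 genes changed by 1.5 on the log2 scale at the adjusted threshold. Its lack of calls therefore does not show that the members were unchanged. Adding the replicate number, 0 of 10 had an unadjusted p under 0.05 (3.21% of all genes) and 0 of 10 an adjusted p under 0.1 (0.00724% of all genes). Adjusted p-values of the 10 members were 1.00 with treatment only and 0.995 to 0.998 with the replicate number (edgeR, Benjamini-Hochberg). DESeq2, run as an alternative with and without the replicate number, also called 0 members at either threshold. On the simulated counts it recovered 84% of the changed genes with the replicate number and 70% without it. With 2 libraries against 2, no permutation of libraries could give a two-sided p below 0.333, so the p-values rest on the models. The labels call the replicates biological but do not say whether they were separate cultures or litters, so the p-values measure the spread between these libraries, which may be technical. In bulk RNA, fewer cells of a type and less RNA per cell cannot be told apart.

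None of the 4 survival genes differed from Vehicle beyond the error of the test. Positions are those of the files, on build GRCm38.p6. Bcl2, the founding survival gene (chromosome 1, 106538178 to 106714274, minus strand), was counted 1533 times in Vehicle replicate 1 and 1010 times in Vehicle replicate 2, against 1696 and 1637 times with EGCG. These were 46.7 and 27.6 CPM in Vehicle and 52.9 and 29.7 CPM in EGCG. The groups overlapped, and in each replicate the EGCG library was the higher one, by 0.18 and 0.11 on the log2 scale. The treatment-only difference was 0.15 ± 0.42 (log2, SE, 95% interval -1.02 to 1.32, adjusted p = 1.00 by edgeR with Benjamini-Hochberg adjustment). With the replicate number in the fit it was 0.14 ± 0.058 with a 95% interval of -0.003 to 0.29 (edgeR adjusted p = 0.995). Of the 10 genes, Bcl2 had the interval that came nearest to leaving out 0.

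Bcl2l1, which encodes BCL-XL (chromosome 2, 152780668 to 152831728, minus strand), was counted 6542 and 4810 times in Vehicle, against 6913 and 7626 with EGCG. Its level was 199 and 131 CPM in Vehicle and 216 and 138 CPM in EGCG. As in Bcl2, the libraries ordered by replicate and not by treatment, with EGCG higher by 0.11 and 0.08 on the log2 scale in replicates 1 and 2. The difference with the replicate number in the fit was 0.09 ± 0.048 (log2, SE, 95% interval -0.03 to 0.22).

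Mcl1, whose protein is short-lived and must be made continuously (chromosome 3, 95658788 to 95663176, plus strand), was counted 24040 and 28667 times in Vehicle, against 24399 and 43022 with EGCG, the last in the deepest library. Scaled, these were 733 and 782 CPM in Vehicle and 761 and 780 CPM in EGCG, so both EGCG values lay between the Vehicle values. Mean levels were 221.6 ± 10.2 RPKM in Vehicle and 225.5 ± 3.79 RPKM in EGCG (SD, n = 2 each). With the replicate number in the fit the ratio of EGCG to Vehicle was 1.02 with a 95% interval of 0.917 to 1.13.

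Bcl2a1b, 1 of the A1 copies (chromosome 9, 89199209 to 89207827, plus strand), was counted 1399 and 870 times in Vehicle, against 1697 and 1162 with EGCG. Its treatment differences in the replicates were the furthest apart of the 10 genes, at 42.6 and 52.96 CPM in Vehicle and EGCG of replicate 1 but 23.7 and 21.1 CPM in replicate 2. EGCG was thus above Vehicle in replicate 1 (difference 0.31) and below it in replicate 2 (difference -0.17) on the log2 scale. The fitted ratio of 1.05 had the widest interval of the survival genes, 0.853 to 1.30.

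Bax and Bak1, the pore formers, did not differ from Vehicle beyond error either. Bax (chromosome 7, 45461697 to 45466898, minus strand) was counted 2320 and 2677 times in Vehicle, against 2523 and 4046 with EGCG. Its CPM were 70.7 and 73.0 in Vehicle and 78.7 and 73.3 in EGCG, so the groups did not overlap, although replicate 2 differed by only 0.006 (log2) and replicate 1 by 0.16. Non-overlapping groups were found in 2 of 10 members, Bax and Bid, and in 11.9% of all genes tested. The fitted difference in Bax was 0.08 with a 95% interval of -0.09 to 0.25.

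Bak1 (chromosome 17, 27019810 to 27029009, minus strand) was counted 3819 and 3989 times in Vehicle, against 3948 and 5725 with EGCG. The highest and the lowest of its libraries were both EGCG libraries, at 123 and 104 CPM, with the Vehicle libraries at 116 and 109 CPM between them. The fitted ratio was 1.00 with a 95% interval of 0.905 to 1.11. Ggnbp1, which overlaps Bak1 on the other strand, had 96 to 137 counts. The libraries were made to keep strand, but the strand setting of the counting is not given in the sources used here.

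Among the BH3-only genes, none passed the test and signs were mixed. Bcl2l11, which encodes BIM, a trigger of death on growth factor loss (chromosome 2, 128126038 to 128162547, plus strand), was counted 2119 and 4268 times in Vehicle, against 2232 and 6318 with EGCG. Its CPM were 64.6 and 116 in Vehicle and 69.7 and 115 in EGCG, again grouped by replicate. The treatment difference with the replicate number in the fit was 0.04 (log2, 95% interval -0.11 to 0.19).

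Bid, whose protein links death receptors to mitochondria after caspase cleavage (chromosome 6, 120891930 to 120916853, minus strand), was counted 564 and 620 times in Vehicle, against 575 and 1110 with EGCG. It stood at 17.2 and 16.9 CPM in Vehicle and at 17.9 and 20.1 CPM in EGCG, so that both EGCG libraries lay above both Vehicle libraries. Replicate 1 gave a difference of 0.06 and replicate 2 of 0.25, and the fitted value was 0.16 with a 95% interval of -0.07 to 0.38. Bcl2l13 overlaps Bid on the other strand with 1343 to 2317 counts, more than Bid itself in each library. It spans 120836212 to 120892842, so the genes overlap at their ends only. These counts are for the whole of Bcl2l13, and reads in the shared stretch were not examined.

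Bbc3, which encodes PUMA, a p53 target (chromosome 7, 16308393 to 16318205, plus strand), was counted 716 and 898 times in Vehicle, against 738 and 1275 with EGCG. Both EGCG libraries, at 23.0 and 23.1 CPM, lay between the Vehicle libraries at 21.8 and 24.5 CPM. The fitted ratio was 0.997, with a 95% interval of 0.872 to 1.14. Pmaip1, which encodes NOXA, the partner that marks MCL1 for destruction, was counted 1543 and 1625 times in Vehicle, against 1385 and 2563 with EGCG. It stood at 47.0 and 44.3 CPM in Vehicle and at 43.2 and 46.5 CPM in EGCG, with opposite signs in the replicates, -0.12 and 0.07 on the log2 scale. Its fitted ratio was 0.982, with a 95% interval of 0.868 to 1.11.

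**Figure D2:**
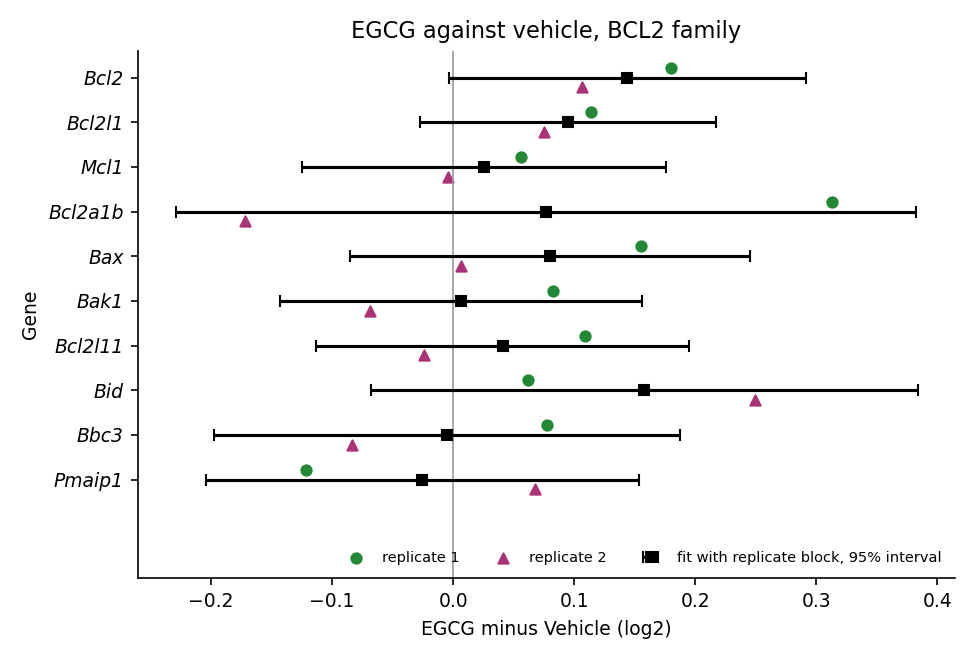
Difference between EGCG and Vehicle on the log2 scale (horizontal axis) for each family gene (vertical axis), as circles for replicate 1, triangles for replicate 2, and black squares with 95% intervals for the edgeR fit with the replicate number. All 10 intervals include 0, that of Bcl2 from -0.003 to 0.29, and the circle and triangle of Bcl2a1b lie on opposite sides of 0 at 0.31 and -0.17.

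Across the family, the same sign in both replicates was found in 4 of 10 genes, namely Bcl2, Bcl2l1, Bax and Bid, all higher with EGCG, and in 50.6% of all genes tested. The median fitted difference was 0.05 on the log2 scale with treatment as the only term, with 8 of 10 members above 0, where all genes tested had a median of 0.01 with 54.2% above 0. By replicate, the members' median was 0.10 in replicate 1, beside 0.03 for all genes, and 0.0009 in replicate 2, beside 0.0018. In replicate 1 the stromal markers also differed between the treatments, at 422 CPM in Vehicle and 1.40 CPM in EGCG, and in replicate 2 they were at 160 and 176 CPM. Their part in the members' values was not tested. With the replicate number in the fit, the lowest lower end of the 10 intervals was a ratio of 0.853 and the highest upper end 0.38 on the log2 scale, in Bcl2a1b and Bid.

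The ratio of effector transcripts to those of Bcl2, Bcl2l1 and Mcl1 did not differ between EGCG and Vehicle beyond the spread of the replicates. Bcl2a1b and the other A1 copies, with 4230 to 7015 summed counts per library, were left out of it. Summed Bax and Bak1 counts over summed Bcl2, Bcl2l1 and Mcl1 counts gave log2 ratios of -2.39 and -2.37 for Vehicle replicates 1 and 2, against -2.35 and -2.42 for EGCG. The mean difference was -0.006, against an SD of 0.060 between the replicates' differences. These within-library ratios do not depend on library scaling, and Mcl1 carries most of the denominator. Single pairs varied more between replicates. Bax to Bcl2, in counts not scaled for gene length, was 1.51 and 1.49 in Vehicle and EGCG of replicate 1. In replicate 2 it was 2.65 and 2.47. Per kilobase of gene length it was 8.79 and 8.64 in replicate 1 and 15.4 and 14.4 in replicate 2. Bcl2l11 to Bcl2 in counts was 1.38 and 1.32 in replicate 1 and 4.23 and 3.86 in replicate 2. Bak1 to Mcl1 stayed between 0.133 and 0.162 in counts in all 4 libraries, and between 0.189 and 0.230 per kilobase.

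The replicates differed in 4 member genes in the same direction under both treatments. Each comparison here sets 1 library against another, so it is a description without a test. Replicate 2 minus replicate 1 was -0.76 in Vehicle and -0.83 in EGCG for Bcl2 on the log2 scale, -0.60 and -0.64 for Bcl2l1, and -0.84 and -1.33 for Bcl2a1b. Bcl2l11 went the other way, at 1.80-fold in Vehicle and 1.64-fold in EGCG (0.85 and 0.72 on the log2 scale). A difference over 0.5 with 1 sign in both treatments, a size chosen after the values were seen, was thus found in 4 of 10 members and in 27.7% of all genes tested, and a difference over 1 in 0 of 10 and in 12% of all. The other members stayed close, with Mcl1 at 0.09 and 0.03, Bax at 0.05 and -0.10, Bak1 at -0.10 and -0.25, Bid at -0.02 and 0.16, Bbc3 at 0.17 and 0.005, and Pmaip1 at -0.085 and 0.10 for Vehicle and EGCG. Without regard to sign, the median difference between the Vehicle libraries was 0.13 in the members and 0.38 over all genes tested.

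**Figure D3:**
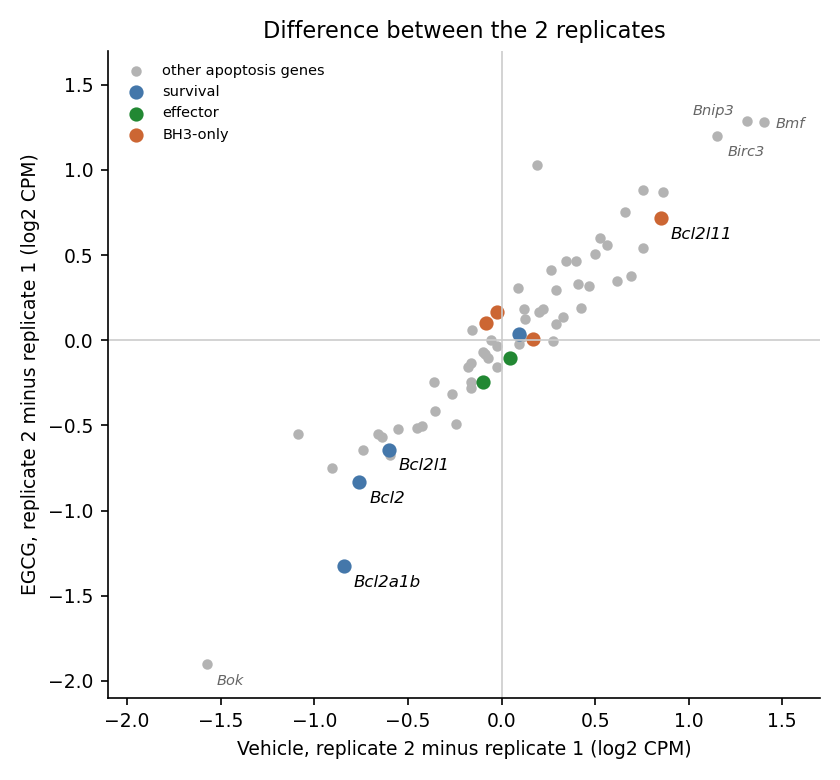
Replicate 2 minus replicate 1 on the log2 CPM scale in Vehicle (horizontal) against EGCG (vertical), for the 10 family genes coloured by role and the other apoptosis genes tested in grey. Bcl2, Bcl2l1 and Bcl2a1b lie at the lower left and Bcl2l11 at the upper right at 0.85 and 0.72, while Bmf, Bnip3 and Birc3 lie further up and Bok further down.

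Microglia markers also differed between the replicates, in both directions. Csf1r, the survival receptor of microglia, was at 1195 CPM in Vehicle replicate 1 and 2373 CPM in Vehicle replicate 2, and Cx3cr1 at 266.6 and 605 CPM, whereas Itgam was at 404 and 169 CPM and Tmem119 at 35.1 and 11.2 CPM. The EGCG libraries had the same order. The replicate number, the culture and the deposited table cannot be told apart in this design, and the part of marker differences in the values of the 4 members was not tested.

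Summed over the copies, A1 was lower in replicate 2 on the CPM scale, as was Bcl2a1b, while the share given to each copy shifted. Bcl2a1d had the most counts, with 2800 and 1978 in Vehicle and 3026 and 3556 in EGCG, and Bcl2a1a had 2065 and 1382 in Vehicle and 2083 and 2297 in EGCG. Bcl2a1c had 1 count in all, in Vehicle replicate 1. Bcl2a1b took 22.3% and 20.6% of the summed counts in Vehicle and 24.9% and 16.6% in EGCG. The sum was 191 and 115 CPM in Vehicle and 212 and 127 CPM in EGCG, higher with EGCG in both replicates, unlike Bcl2a1b alone. Fitted as 1 gene, the sum differed by 0.15 ± 0.39 with treatment only (log2, SE). With the replicate number it was 0.15 ± 0.048, with an unadjusted p under 0.05 and an adjusted p of 0.995 (edgeR, Benjamini-Hochberg over all genes). The treatment of reads that fit more than 1 copy is not given in the sources used here, so the values of single copies are uncertain.

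**Figure D4:**
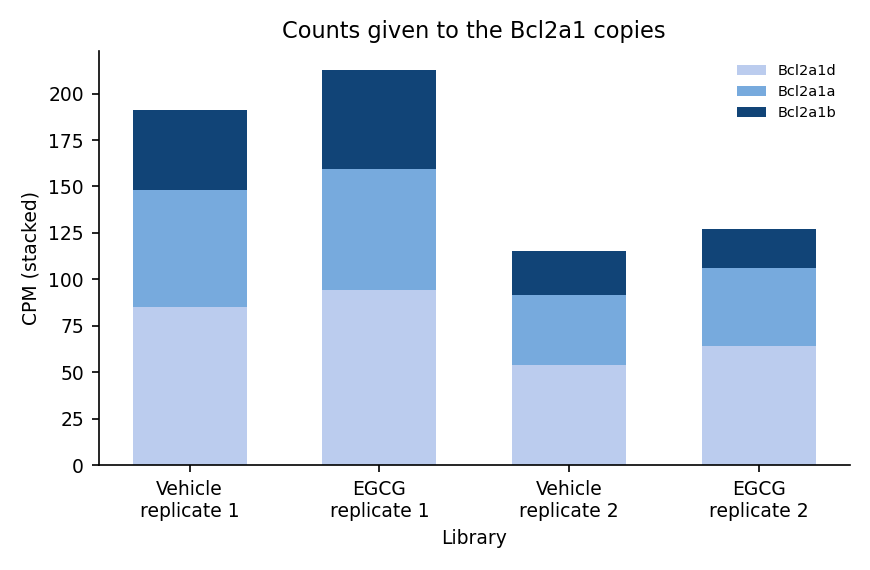
Stacked bars of CPM given to Bcl2a1d, Bcl2a1a and Bcl2a1b in each library. The bars of replicate 1 reach 191 and 212 CPM and those of replicate 2 reach 115 and 127 CPM, and the Bcl2a1b part is largest in EGCG replicate 1 at 52.96 CPM.

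Few of the other genes of the apoptosis machinery passed the test, and none after adjustment. Of 58 genes listed from textbook knowledge, 55 were tested, and Bcl2l10, Hrk and Bcl2a1c were not, with 0 to 1 count in each library. With treatment only, 0 of 55 had an unadjusted p under 0.05. With the replicate number, 1 was higher (Bcl2a1d, 0.20 on the log2 scale) and 1 was lower (Stat3, -0.13) at that threshold, where 3.21% of all genes passed, and 0 of 55 passed after Benjamini-Hochberg adjustment in either edgeR fit. STAT3 is a factor known to act on survival genes of the family. Neither passed the unadjusted threshold in DESeq2 with the replicate number. The median difference of the 55 was 0.02, beside 0.01 over all genes tested.

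Among the remaining relatives, Bcl2l2, the survival gene for BCL-W, stood at 43.1 and 29.4 CPM in Vehicle and 40.8 and 28.4 CPM in EGCG (treatment-only difference -0.07). Bad, a BH3-only gene held in check by growth factor signalling, was at 26.5 and 23.7 CPM in Vehicle and 26.2 and 22.1 CPM in EGCG (difference -0.06). Bmf, a BH3-only gene, was at 34.4 and 91.0 CPM in Vehicle and 34.7 and 84.6 CPM in EGCG (difference -0.07), so its libraries too were ordered by replicate. Bok, an effector relative of Bax and Bak1, was nearly silent, with 22 and 7 reads for Vehicle against 11 and 3 for EGCG (difference -1.15).

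By list with the replicate number in the fit, none of the 8 other BH3-only and BH3-like genes, 8 apoptosome and caspase genes, 7 caspase inhibitors and antagonists, 7 death receptor genes, 3 mitochondrial partners, 4 MCL1 turnover genes and 5 other p53 targets tested passed in either direction. Of the 3 other survival genes 1 passed (Bcl2a1d) and of the 9 transcription factors 1 passed (Stat3), both at the unadjusted threshold. Between replicates, 17 of the 55 differed by over 0.5 with 1 sign in both treatments, beside 27.7% of all genes, and 4 differed by over 1 (Bok, Bmf, Bnip3 and Birc3), beside 12%. Bmf had differences of 1.40 in Vehicle and 1.28 in EGCG, the same direction as Bcl2l11. Of the 9 transcription factors, 4 differed by over 0.5, all of them higher in replicate 2: Nfkb1 and Rela, which encode NF-κB subunits (0.86 and 0.87, 0.75 and 0.88), Foxo3, which encodes a FOXO factor (0.76 and 0.54), and Stat3 (0.53 and 0.60). The other 5 ranged from -0.18 in Ddit3 to 0.47 in Stat5a, with Trp53, which encodes p53, at -0.02 and -0.04.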

How the data were processed

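Poly-A RNA of 4 microglia libraries was sequenced with paired reads. The authors filtered the reads, aligned them with HISAT2 to GRCm38.p6 and deposited raw counts of reads per gene, 1 table per replicate, with gene lengths. The counting program, the annotation, the strand setting and the rule for reads that fit more than 1 gene are not given in the sources used here. Columns were tied to samples through the study's sample sheet and titles.

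Tables were joined on gene identifier. Loci assembled separately in each table (697 and 329) and non-coding genes were left out of the fit, and a gene was tested if its counts reached 10 over all libraries. Of the 10 members, 9 had the same position in GENCODE release M21. Tests were run under R 4.3.3 using edgeR 4.0.16 (TMM, quasi-likelihood F test, limma 3.58.1) and, as an alternative, DESeq2 1.42.0. CPM and RPKM were computed from the counts with TMM library sizes, and a prior count of 2 was added for log2 values. The treatment-only design follows the study's methods. Other tests, normalizations, filters, gene classes, the replicate number as a block and leaving out each library were tried as alternatives.

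Members, gene lists and tests were chosen with earlier results of these data known, so no list test was run. The text names all 10 members, every gene of the other lists with an unadjusted p under 0.05 in either fit, the Bcl2a1 copies, Bok, Bad, Bmf and Bcl2l2. Other genes named for differences between replicates were chosen after their values were seen. Both tools were tested on simulated data with known changes. Across the genes tested, the replicate difference in Vehicle and that in EGCG had r = 0.64. The EGCG minus Vehicle differences of replicate 1 and replicate 2 had r = -0.05.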

Additional observations from a re-analysis of the deposited data

How the results depend on the processing

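No member gene passed either threshold in the treatment-only comparison under any of the alternatives run. Of 151 single-gene values under alternatives, 0 had a p under 0.05 and 20 had the other sign. The smallest p was 0.375 with all libraries and no block (edgeR or DESeq2 models) and 0.189 with a library left out. The 151 values include edgeR and DESeq2 with the replicate block and the treatment-only fit of the summed A1 copies. They do not include the other alternatives with the block or the block fit of that sum. The median over members ranged from 0.001 to 0.07 on the log2 scale. Signs changed in these cases, none of them called. Bak1 was -0.0084 with upper-quartile factors, -0.025 with total counts only and -0.00085 in DESeq2 with the replicate block. With total counts only, Mcl1 was -0.0075 and Bcl2l11 -0.0024. Leaving out each library in turn gave ranges of -0.12 to 0.10 for Bak1, -0.087 to 0.064 for Bbc3, -0.32 to 0.58 for Bcl2, -0.66 to 0.64 for Bcl2a1b, -0.26 to 0.43 for Bcl2l1, -0.41 to 0.50 for Bcl2l11, -0.023 to 0.057 for Mcl1 and -0.11 to 0.024 for Pmaip1, where the group left with 1 library was assumed to vary like the other. The sign turned for Mcl1, Bcl2l11 and Pmaip1 without Vehicle replicate 1, for Bcl2, Bcl2l1, Bcl2a1b, Bak1 and Pmaip1 without EGCG replicate 1, for Bcl2, Bcl2l1, Bcl2a1b, Bak1 and Bbc3 without Vehicle replicate 2, and for Mcl1 and Bcl2l11 without EGCG replicate 2. Bax (0.03 to 0.10) and Bid (0.04 to 0.24) kept their sign.

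With the replicate block, 0 members had a p under 0.05 in edgeR, but 1 did when at least 10 counts were required in every library (Bcl2). The cause was not tested. Replicate numbers came from the titles, and no source says what they share beyond a table. With 2 pairs, the pairing rests on r = 0.64 across genes, while the treatment differences of the 2 pairs had r = -0.05. Counting members that differ between replicates by over 0.5 in place of 1 on the log2 scale, a size chosen after seeing the data, gave 4 in place of 0.

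The main limits are 2 libraries per group, a deposited table that cannot be told apart from the replicate, near-identical Bcl2a1 copies, and a strand setting that is not given.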
